A study of Gallus gallus with 26 samples.

Results

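The comparison of embryonic day 19 (E19) with E17 covers the last embryonic step before hatching in the complexus, the muscle at the back of the neck of the chick, in broiler (meat-type) chickens (Gallus gallus). Its members were chosen by the day in the sample titles, and they are 5 libraries of E19 and 6 of E17, together 11 of the 26 libraries of the series. Both groups are complexus of broilers in a single labelled batch, and age is the only difference in the labels, which name no allele and no agent. The other libraries are 6 of E15, 5 of E20 and 4 of E21, and the series description ties the last 2 groups to hatch and to the placement of the chicks. The libraries were made by MARS-Seq per the series description, a method that tags and counts the 3′ ends of transcripts. Whether the libraries came from separate birds is not stated, so the p-values measure a spread between libraries. In the main fit of single genes that spread is pooled over all 26 libraries.

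The complexus, also called the hatching muscle, lifts the head and drives the beak against the shell. It is known to enlarge towards hatching and to shrink afterwards. Late embryonic skeletal muscle moves from making new fibres to filling them with contractile proteins and energy enzymes, and the embryo's oxygen supply becomes limiting shortly before it pierces the air cell. These are textbook facts and were not measured here. The genes are listed by Ensembl identifier, the identifiers are not paired with names in the deposited table, and 0 of the 8758 identifiers matched the RefSeq gene table used here. Pathways and cell type markers are therefore not analysed here, the muscle label was not checked against marker genes, and genes are grouped below by level, course and deposited cluster.

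The 11 libraries held between 580768 counts (E19 replicate 5) and 2040435 counts (E17 replicate 2). The median was 1351439 counts at E17 and 941808 at E19, so the later day was the shallower one. Each of the 11 libraries correlated best with a library of its own day, in a correlation across genes and not across replicates. The median correlation of an E17 library was 0.956 to 0.966 with its own day and 0.919 to 0.926 with E19. For E19 libraries the days were less apart, with 0.926 to 0.935 for their own day and 0.911 to 0.931 for E17. In E19 replicate 3 these were 0.933 and 0.931. The E17 libraries were the more alike. Their biological coefficient of variation, the spread between libraries of a day that remains after counting error, was 17% at E17 and 24.8% at E19. Leaving out single libraries, an alternative added after seeing the data, moved it between 16.5% and 17.5% at E17 and between 21.8% (without E19 replicate 2) and 26.1% at E19. The difference in spread was not tested. The edgeR fit used below pools the spread over the 26 libraries of all days (common value 19.2%), which is under that of E19 alone. What the unequal spread does to the calls was not tested.

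Of the 5901 genes tested, 583 (9.88%) were higher and 434 (7.35%) were lower at E19, with a Benjamini-Hochberg adjusted p under 0.05 in edgeR's quasi-likelihood test. The typical difference was moderate. The genes that rose had a median log2 fold change of 0.82, with quartiles of 0.58 and 1.23, and those that fell had a median of -0.79, with quartiles of -1.18 and -0.56. At least 2-fold differences were found for 225 higher (3.81%) and 151 lower genes (2.56%). Differences of at least 4-fold were less evenly spread between the directions, with 46 higher and 22 lower genes, and at least 8-fold differences were found for 13 higher genes and 1 lower gene. These are counts of calls, and the balance of calls depended on the scale, as given below. The E17 libraries held 8767947 counts in all and the E19 libraries 4528462. With at least 10 counts on one day and none on the other, 25 genes were seen only at E17 and 1 only at E19. Of the 25, 1 passed the filter on low counts. What depth adds to the balance was not tested. Over all genes tested, called or not, the log2 difference ran from -6.46 to 4.45, and the lowest among the called genes was -3.37. The largest fall was thus not called. In bulk tissue, fewer cells of a type and less RNA per cell cannot be told apart, which holds for every gene and group below.

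The libraries of both days were fully separated for part of these genes. All 5 E19 libraries lay above all 6 E17 libraries for 299 of the genes tested (5.07%) and below them for 221 (3.75%). Among the genes that rose, 287 (49.2%) had no overlap between the days, and among those that fell, 194 (44.7%). The remaining calls therefore rest on differences in the mean with some overlap of single libraries.

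**Figure D1:**
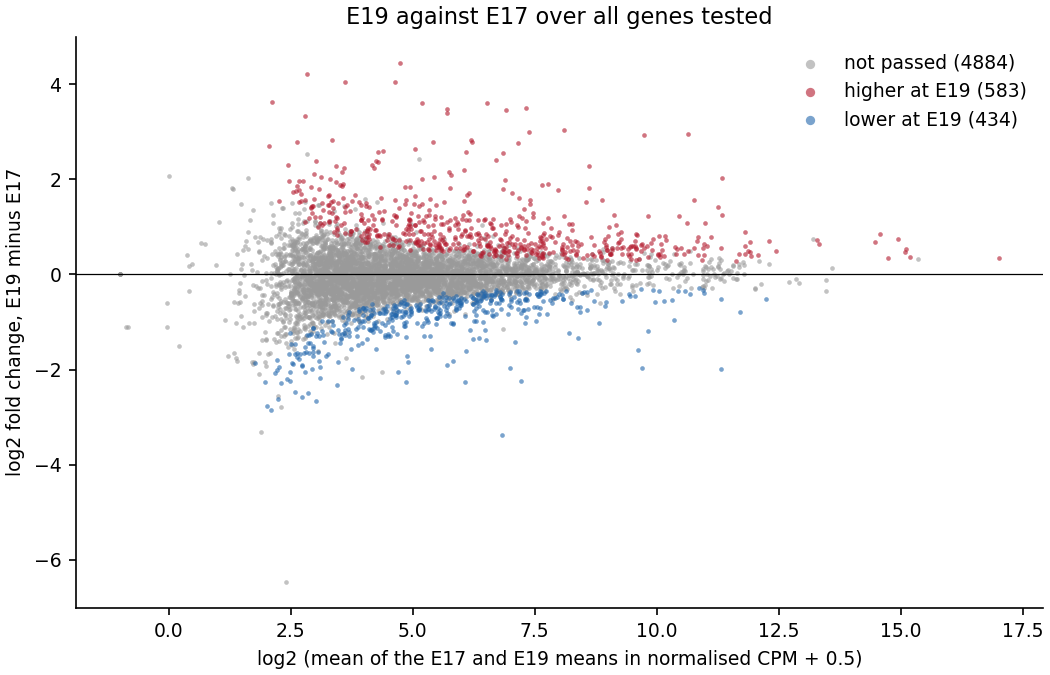
Each point is 1 of the 5901 genes tested, with the mean level of E17 and E19 on the x axis (log2 of normalised CPM + 0.5) and the log2 fold change of E19 minus E17 on the y axis. Red points are the 583 genes higher and blue points the 434 genes lower at E19 in edgeR, and the blue points past -2 are fewer than the red points past 2.

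Genes are named by rule, as the first 2 in each direction by size of change among 282 higher and 183 lower genes that passed the test, reached a mean of 10 CPM on the higher day and had no overlap between the days. The gene with the largest rise under this rule was ENSGALG00000027716.2. Its normalised CPM (counts relative to the library total, scaled with TMM factors) were 0, 1.45, 0.585, 0, 0.781 and 0 in E17 replicates 1 to 6, and 27.6, 12.7, 5.86, 8.28 and 9.9 in E19 replicates 1, 2, 3, 5 and 6. The gene was thus close to its detection limit in every E17 library and present in every E19 library. The mean rose from 0.47 ± 0.59 (n = 6, SD) to 12.9 ± 8.59 normalised CPM (n = 5, SD), or 4.21 on the log2 scale (SE 0.59, adjusted p = 6e-06 in edgeR). With 5 counts at E17 against 46 at E19, the ratio of the rates was 21.3, and its exact 95% Poisson interval, which covers counting error only, ran from 8.5 to 68.7.

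The level of ENSGALG00000027716.2 went on to 39.3 ± 16.4 normalised CPM at E20 (n = 5, SD) and had dropped to 6.21 ± 1.92 by E21 (n = 4, SD). Its level at E15 was 0.859 ± 0.733 normalised CPM (n = 6, SD), as low as at E17. The single libraries ranged from 21.4 to 62.7 at E20 and from 3.51 to 8.06 at E21. The gene passed the filter on low counts in the fit of all 26 libraries and not in that of E17 and E19 alone. Its adjusted p for E19 against E17 therefore comes only from fits that include the other days. Its later levels are given as a description, with no test.

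The next gene by size of rise was ENSGALG00000023622.3. Its normalised CPM in E17 replicates 1 to 6 were 0.995, 3.39, 3.51, 0, 4.69 and 3.23. In E19 replicates 1, 2, 3, 5 and 6 they were 74.4, 73.7, 27, 18.6 and 36.3. The lowest E19 library stood well above the highest E17 library, while the E19 libraries varied about 4-fold among themselves. The means were 2.64 ± 1.76 (n = 6, SD) and 46 ± 26.4 normalised CPM (n = 5, SD), and edgeR gave a log2 difference of 4.04 (SE 0.49, adjusted p = 6.04e-07). Its course on the other days had the same outline, with 2.39 ± 0.751 normalised CPM at E15 (n = 6, SD), 95.1 ± 66.9 at E20 (n = 5, SD) and 20.7 ± 12.3 at E21 (n = 4, SD). The E20 libraries ranged from 46.4 to 212 normalised CPM (median 75.6) and overlapped those of E19. The step from E19 to E20 was not tested. From E20 to E21 the gene fell by 2.13 on the log2 scale (adjusted p = 0.000282 in edgeR). Both rising genes belong to cluster 4 of the deposited clusters attributed to DESeq2 and to cluster 3 of those attributed to maSigPro, a regression method for time courses.

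The gene with the largest fall under the naming rule was ENSGALG00000028273.2. Its normalised CPM in E17 replicates 1 to 6 were 180, 208, 144, 230, 348 and 130. They were 16.5, 16.1, 38.7, 12.4 and 11.5 in E19 replicates 1, 2, 3, 5 and 6. The lowest E17 library stood more than 3-fold above the highest E19 library, which was replicate 3. The mean went from 207 ± 78.6 (n = 6, SD) to 19.1 ± 11.2 normalised CPM (n = 5, SD), or -3.37 on the log2 scale (SE 0.30, adjusted p = 2.05e-09 in edgeR). This gene had been falling before, from 643 ± 131 normalised CPM at E15 (n = 6, SD), with a log2 difference of -1.64 to E17 (adjusted p = 1.67e-06 in edgeR). The fall to E19 was steeper than that earlier one, with a difference between the steps of -1.73 (adjusted p = 0.0187 in edgeR). It then stayed low, at 18.4 ± 9.62 at E20 (n = 5, SD) and 14.9 ± 3.55 at E21 (n = 4, SD).

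The other falling gene named by the rule, ENSGALG00000010244.6, was a gene of low level. It had 6.96, 11.6, 15.2, 17.4, 17.2 and 9.69 normalised CPM in E17 replicates 1 to 6. In E19 replicates 1, 2, 3, 5 and 6 it had 1.38, 1.15, 1.17, 4.14 and 3.3, which stand for 1 or 2 counts in each library. The means were 13 ± 4.26 (n = 6, SD) and 2.23 ± 1.4 (n = 5, SD), and edgeR gave a log2 difference of -2.66 (SE 0.52, adjusted p = 0.00047). From 109 counts at E17 and 7 at E19, the ratio of the rates was 6.72, and its exact 95% Poisson interval ran from 3.15 to 17.1. The later days were between these levels, with 7.65 ± 2.57 normalised CPM at E20 (n = 5, SD) and 8 ± 4.54 at E21 (n = 4, SD). At E15 the gene had 16.4 ± 7.96 normalised CPM (n = 6, SD). It passed the filter on low counts in the fit of all 26 libraries and not in that of E17 and E19 alone.

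**Figure D2:**
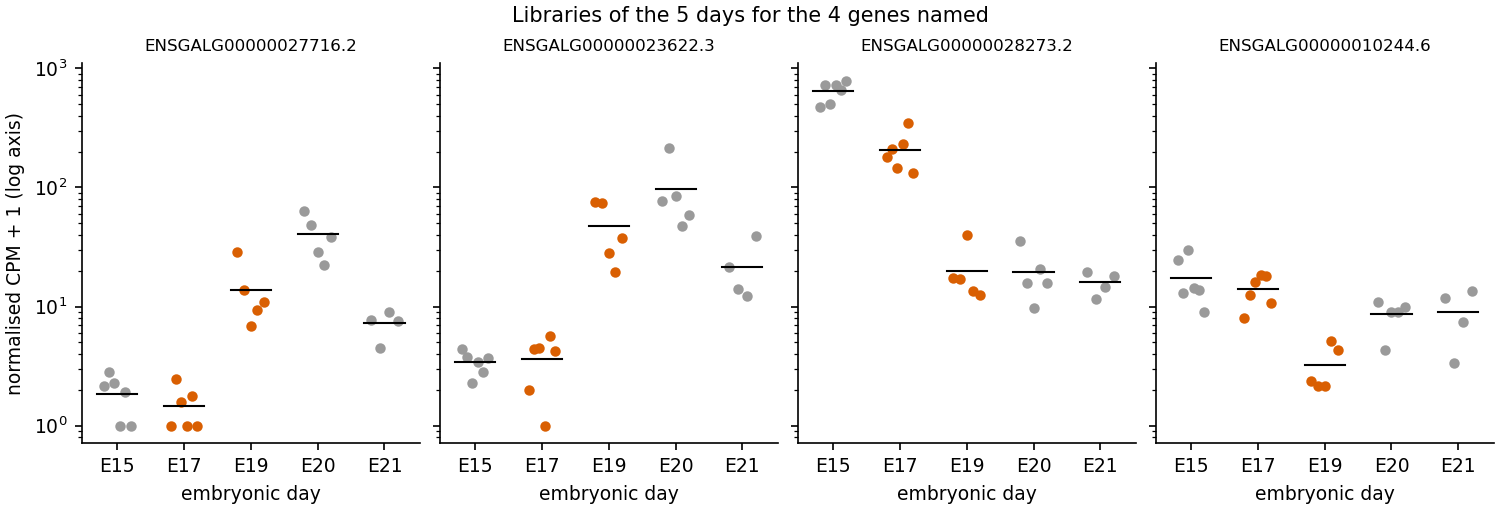
Normalised CPM + 1 on a log axis in each of the 26 libraries by embryonic day for the 4 genes named, with E17 and E19 in orange, the other days in grey and the mean of each day as a line. The 2 rising genes have their highest means at E20 (39.3 and 95.1 CPM), ENSGALG00000028273.2 falls from 643 CPM at E15 to 19.1 CPM at E19, and ENSGALG00000010244.6 has its lowest mean, 2.23 CPM, at E19.

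Abundant genes were called more often than scarce ones, above all among the genes that rose. The genes tested were ordered by their mean level over the 5 days and divided into 5 classes of equal size. In the lowest class, 2.48 to 10.2 normalised CPM, 47 of 1180 genes rose (3.98%) and 58 fell (4.92%). In the middle class, 77 rose (6.53%) and 86 fell (7.29%). In the highest class, from 91.8 normalised CPM upwards, 271 of 1181 genes rose (22.9%) and 126 fell (10.7%). The calls differed in size too, since 44 of the 47 rising genes of the lowest class but 51 of the 271 of the highest class rose at least 2-fold, so differences under 2-fold were called mostly among abundant genes. The median log2 difference in a class ran from -0.13 in the lowest to 0.08 in the highest. With library totals in place of TMM factors it ran from -0.38 to -0.16. On that scale 2.8% of the lowest and 12.4% of the highest class rose, and 12.5% and 29.9% fell.

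The most abundant transcripts showed the same tilt. Of the 50 most abundant genes by summed counts, 22 rose and 4 fell (median log2 fold change 0.25), and of the first 200, 64 rose and 20 fell (median 0.17). Over all genes tested, 9.88% rose and 7.35% fell. Of the 50, 3 were at least 2-fold higher and 1 was at least 2-fold lower, where such genes made up 3.81% and 2.56% of all genes tested. The balance depended on the scale. With library totals, 14 of the 50 rose and 14 fell, and of the first 200, 40 rose and 61 fell. On that scale 5.49% of all genes tested rose and 21.1% fell, and the median over all genes tested was -0.27 instead of -0.02.

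Counts were more concentrated at E19. The gene with the most counts took 11.5%, 9.47%, 10.2%, 10.6%, 10.8% and 12% of the counts in E17 replicates 1 to 6, and 12.1%, 11.7%, 10.3%, 12% and 12.1% in E19 replicates 1, 2, 3, 5 and 6. Its ranges on the 2 days overlapped. The genes of ranks 2 to 20 took 27.4%, 26.2%, 27.8%, 29.6%, 27.2% and 28.2% at E17 and 31.9%, 30.6%, 31.6%, 30.6% and 32.6% at E19, in the same order of libraries. These did not overlap, and the means of 27.7% ± 1.12 (n = 6, SD) and 31.5% ± 0.871 (n = 5, SD) differed by 3.73 points (exact two-sided permutation p = 0.00433). The classes below lost share. Ranks 21 to 200 went from 29.7% ± 0.816 (n = 6, SD) to 28.3% ± 0.574 (n = 5, SD), the genes after rank 200 down to rank 1000 from 18.4% ± 0.591 to 17% ± 0.791, and all genes below rank 1000 from 13.5% ± 0.65 to 11.6% ± 0.528, values given without a test.

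Fewer genes were also seen at a given depth. The smallest number of genes that together hold 50% of a library's counts was 57.7 ± 6.77 at E17 (n = 6, SD), with 51 to 70 in single libraries, and 40 ± 3.39 at E19 (n = 5, SD), with 36 to 44. At a common depth of 580768 counts, the expected number of genes with a count was 7563, 7734, 7496, 7648, 7593 and 7548 in E17 replicates 1 to 6. It was 7331, 7318, 7267, 7329 and 7352 in E19 replicates 1, 2, 3, 5 and 6, so that every E19 library lay below every E17 library. The means of 7597 ± 83.8 (n = 6, SD) and 7319 ± 31.9 (n = 5, SD) differed by -278 genes (exact two-sided permutation p = 0.00216, the smallest that 5 against 6 libraries allow). After Benjamini-Hochberg adjustment over this test and that of ranks 2 to 20, both exact p-values were 0.00433. When the 20 most abundant genes were left out, an alternative chosen after seeing the data, the numbers were 7509 ± 76.7 at E17 (n = 6, SD) and 7308 ± 51.6 at E19 (n = 5, SD), a difference of -201 genes (exact permutation p = 0.00433).

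**Figure D3:**
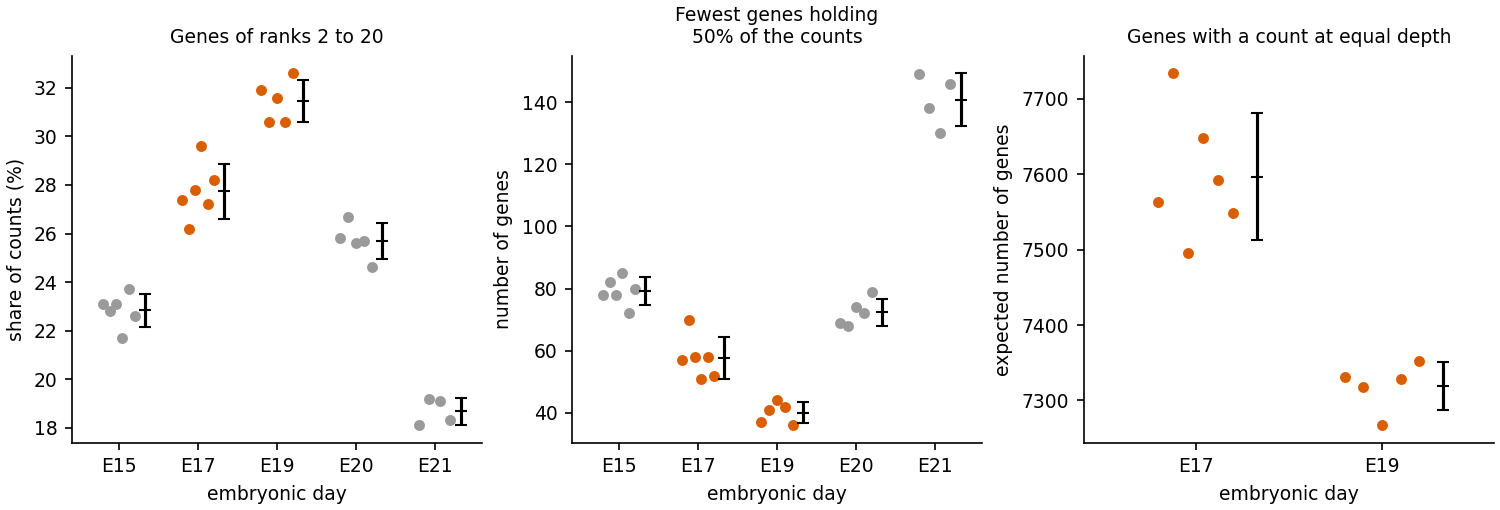
Share of counts in the genes of ranks 2 to 20, smallest number of genes that hold 50% of the counts, and expected number of genes with a count at 580768 counts, each point 1 library, with the mean and SD of the day in black. E19 stands apart from E17 in all 3 panels, with 30.6% to 32.6% of the counts in ranks 2 to 20, 36 to 44 genes holding 50% of the counts and 7267 to 7352 genes at equal depth.

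The genes that rose and fell were followed on the days that the comparison does not use. In E20 against E15, which shares no library with it, 433 of the 583 genes that rose to E19 were higher (74.3%, against 25.9% of all genes tested) and 14 were lower (2.4%, against 26.7%), with a median log2 fold change of 0.85. In the same comparison 327 of the 434 genes that fell to E19 were lower (75.3%) and 16 were higher (3.69%), with a median of -0.98. Most genes of both groups thus had the same direction between these other libraries. In E21 against E15, 344 of the genes that rose were higher (59%, against 27.3% of all genes) and 303 of those that fell were lower (69.8%, against 28.6%). With library totals, 67.9% of the genes that rose were higher in E20 against E15 (20.9% of all genes) and 69.5% in E21 against E15 (35.6%). On that scale 82% and 61.1% of those that fell were lower, against 33% and 22.2% of all genes.

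With TMM factors, part of the rising genes fell again after E20, while the falling genes had calls in both directions at shares near those of all genes. From E20 to E21, again with no shared library, 170 of the 583 genes that rose to E19 fell (29.2%, against 8.59% of all genes) and 32 rose (5.49%, against 5.74%), with a median of -0.27. Of the 434 genes that fell to E19, 31 fell further (7.14%) and 32 rose (7.37%), with a median of 0.01. The calls depended on the scale. With library totals, 16% of the genes that rose to E19 fell from E20 to E21 and 24.2% rose, where 4.15% of all genes fell and 28.8% rose. On that scale the median of the rising genes turned to 0.10 and that of the falling ones to 0.38, where the median of all genes was 0.37. The change of scale moves all genes by about the same amount, so it cannot test the distance of the rising genes from the rest. The mean level was highest at E19 for 305 of the genes that rose (52.3%), at E20 for 156 (26.8%) and at E21 for 117 (20.1%), where the shares over all genes tested were 16.4%, 15.6% and 27.4%. The share at E19 is in part fixed by the choice of the genes. Among the 225 genes that rose at least 2-fold, E20 was the highest day more often than E19, with 100 genes against 90. Of the 151 genes that fell at least 2-fold, 122 had their highest mean at E15 (80.8%, against 29.1% of all genes) and 77 their lowest at E21 (51%, against 26.5%). The choice of these 151 genes leaves out E19 as the highest day and E17 as the lowest. That raises the shares of the other days, so they are a description.

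The share of all counts held by these genes shows the size of the shift in the RNA pool. The genes that rose held 32.3% ± 1.61 of the counts at E15 (n = 6, SD) and 41% ± 1.41 at E17 (n = 6, SD). Their share was 51.2% ± 1.02 at E19 (n = 5, SD), then 47.9% ± 1.17 at E20 (n = 5, SD), and 38.4% ± 0.65 by E21 (n = 4, SD). The genes that fell held, from the first day to the last and over the same libraries, 10.9% ± 0.535, 7.42% ± 0.471, 3.94% ± 0.172, 4.15% ± 0.13 and 5.22% ± 0.209 (SD). The values of E17 and E19 chose the genes and are a description.

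**Figure D4:**
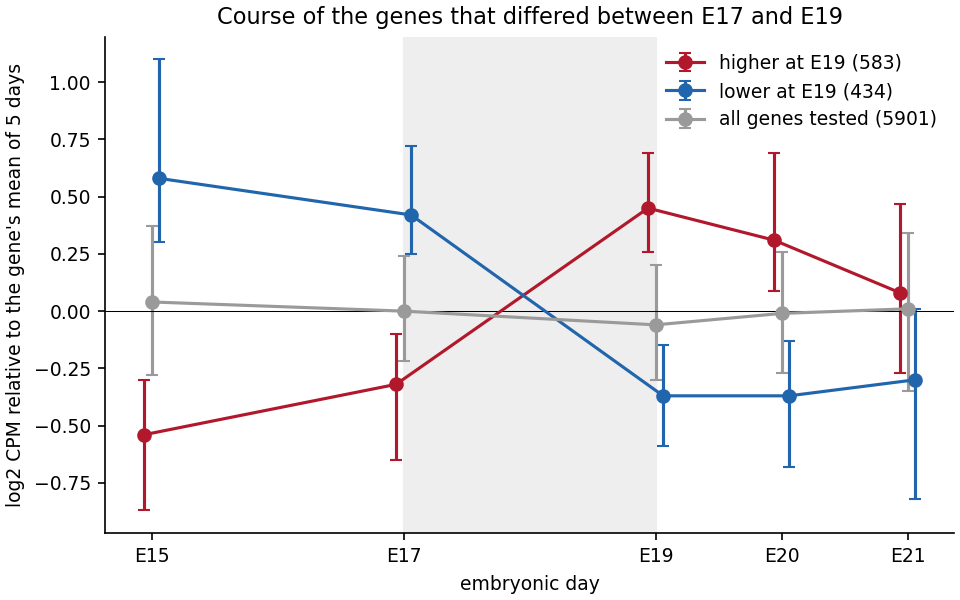
Median and quartiles, over genes, of the log2 CPM on each day relative to the gene's mean over the 5 days, for the 583 genes higher at E19, the 434 lower at E19 and all 5901 tested; the grey band marks the step that chose the genes. The rising genes stand at a median of -0.54 at E15, 0.45 at E19 and 0.08 at E21, and the falling genes at 0.58, -0.37 and -0.30.

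A change of pace was tested gene by gene by setting the step from E17 to E19 against the equally long step from E15 to E17, in the same edgeR fit. The steps differed for 153 of 5901 genes (2.59%) at an adjusted p under 0.05, upwards for 73 (1.24%) and downwards for 80 (1.36%). Of the genes bent upwards, 62 also rose from E17 to E19, with a median log2 step of 1.14 after a median step of -0.44 from E15 to E17. Over that earlier step 22 of the 62 had fallen and 4 had risen, where 8.66% of all genes tested fell and 9.08% rose. The choice of these genes by the difference between the steps favours an earlier fall, so these counts are a description. Of the genes bent downwards, 47 fell from E17 to E19, with a median step of -0.71 after one of 0.29. A further 32 had a median step of 0.73 and then one of -0.19, and their later step did not pass the test. All 32 had risen from E15 to E17, which their choice by the difference between the steps favours. A step that did not pass does not show that the rise had ended. The 2 steps share the E17 libraries, and the count of 153 genes leaned on them. It was 85, 79, 122, 95, 129 and 83 without E17 replicates 1 to 6 in turn, and 103 to 200 without single E19 libraries. No E15 library was left out.

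In order of age, the median levels of the 62 genes bent upwards, relative to the mean of the 5 days, were -0.24, -0.68, 0.43, 0.45 and 0.15. Those of the 47 bent downwards were 0.25, 0.53, -0.13, -0.37 and -0.36. From E15 to E17, 19 of the 47 had risen and 2 had fallen, where 9.08% and 8.66% of all genes tested did. The choice of the 47 by the difference between the steps favours an earlier rise, so these counts are a description. The 4 genes named above all changed by more than 2-fold from E17 to E19, and ENSGALG00000028273.2 was the one whose steps differed. For the 2 rising genes the difference between the steps was 4.60 (ENSGALG00000027716.2, adjusted p = 0.0654) and 3.73 (ENSGALG00000023622.3, adjusted p = 0.0687), and for ENSGALG00000010244.6 it was -2.33 (adjusted p = 0.0641), none past the threshold in edgeR.

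The deposited clusters were made by the authors from these same libraries and are no independent evidence of direction. Among those attributed to maSigPro, all 48 genes of cluster 3 rose from E17 to E19, with a median log2 fold change of 1.31, and 40 of them rose at least 2-fold. Their median level relative to the mean of the 5 days had climbed from -1.64 at E15 to -0.67 at E17, and reached 0.64 at E19 and 1.08 at E20. In cluster 1 of maSigPro, 69 of 115 genes fell and none rose, with a median of -1, in a decline that ran over all days from 1.56 at E15 to -1.42 at E21. Cluster 5 of maSigPro held 24 genes with their highest median level at E19, and 13 of them rose and none fell, with a median step of 0.50. Clusters 2 and 4 of maSigPro had small median steps, of 0.23 and 0.10. In cluster 2, 24 of 109 genes rose (22%, against 9.88% of all genes tested), 12 of them at least 2-fold. In the same cluster 5 fell (4.59%, against 7.35%). With library totals cluster 2 had 15 higher and 13 lower genes, where 5.49% of all genes tested rose and 21.1% fell. With library totals the balance among the 47 genes of cluster 4 changed from 6 higher (12.8%) and 0 lower to 0 higher and 7 lower.

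Among the clusters attributed to DESeq2, cluster 2, which peaked at E19, had 47 of 171 genes higher (27.5%) and 2 lower (1.17%). Cluster 5, which rose at E20, had 38 of 291 higher (13.1%) and 12 lower (4.12%), where 9.88% of all genes tested rose and 7.35% fell. On library totals these became 26 higher and 15 lower in cluster 2, and 23 higher and 43 lower in cluster 5. On that scale 5.49% of all genes tested rose and 21.1% fell. The median of cluster 5 went from 0.07 to -0.19 and that of all genes tested from -0.02 to -0.27. The other clusters held larger changes, with 121 of 161 genes at least 2-fold higher in cluster 4, and 78 of 199 at least 2-fold lower in cluster 1. In cluster 3, 27 of 81 were at least 2-fold lower. Calls were also found outside these clusters, at lower shares than over all genes tested. The clusters were made from these same libraries, so the lower shares are a description. Of 4998 tested genes in no DESeq2 cluster, 357 rose (7.14%, against 9.88% of all genes tested) and 295 fell (5.9%, against 7.35%). At least 2-fold, 66 of them rose and 45 fell, where 225 and 151 of all 5901 genes tested did.

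The authors' deposited table called 248 genes for this step, 147 higher and 101 lower. Of the 376 genes that differed at least 2-fold here, 243 were also called in the authors' deposited table and 133 were not. For 130 of these 133 no E17 or E19 library reached 30 counts, the count threshold of the authors' deposited table. For 21 of the 133 the adjusted p in the authors' deposited table was above 0.05, and none of the 133 met all 3 deposited thresholds. ENSGALG00000027716.2, with at most 20 counts in a library, and ENSGALG00000010244.6, with at most 26, were among the genes not called in the authors' deposited table.

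The balance of higher and lower calls depended on the scale. With library totals as the scale, 324 genes rose (5.49%) and 1248 fell (21.1%), and the median over all genes tested moved by -0.25 on the log2 scale. The TMM factors, which set this scale, lay between 0.897 and 1.02 at E17 and between 0.749 and 0.837 at E19. Each of the 324 genes that rose on library totals had also risen with TMM factors, and each of the 434 genes that fell with TMM factors also fell on library totals. No gene was called in opposite directions on these scales. The change of scale moves all genes by about the same amount, so this nesting of the calls is no separate support. Under TMM factors, DESeq2's size factors and library totals alike, 324 genes rose and 412 fell, with median log2 fold changes of 1.14 and -0.81, and 199 of the rising and 148 of the falling genes differed at least 2-fold.

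**Figure D5:**
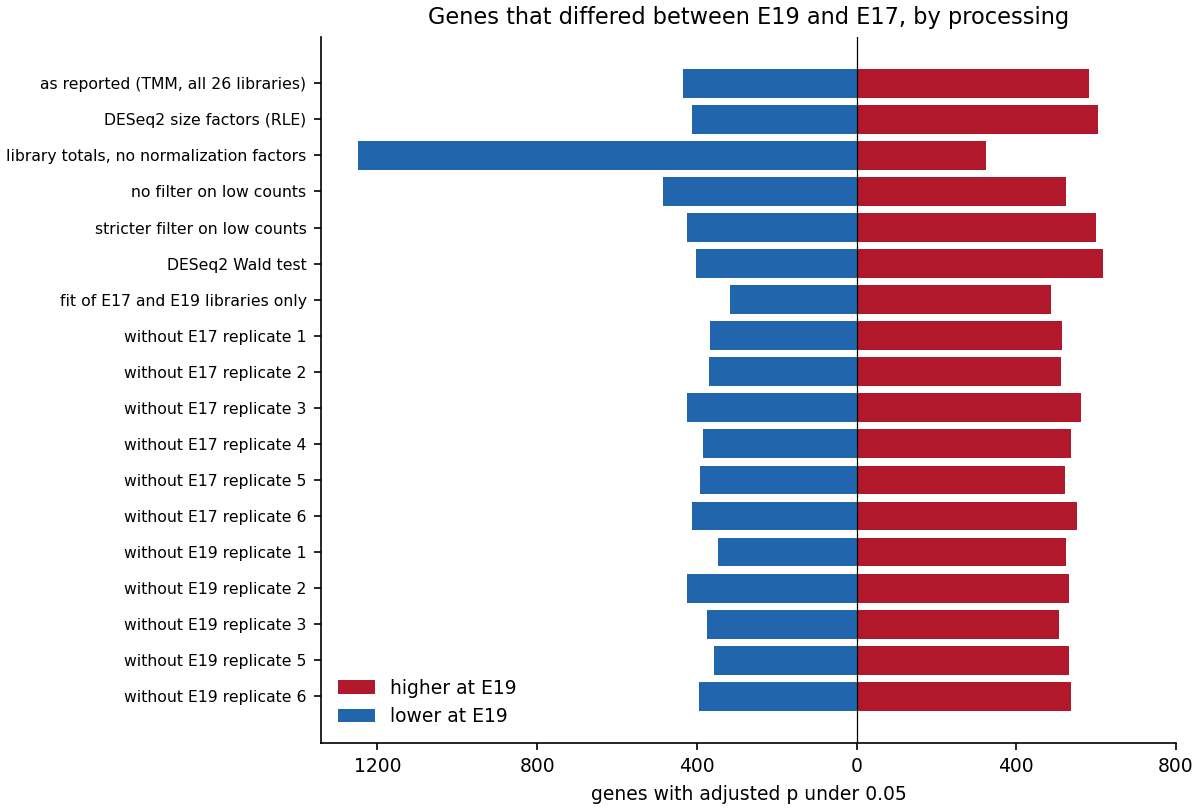
Number of genes with an adjusted p under 0.05 that were higher (red, to the right) and lower (blue, to the left) at E19. Bar pairs stand for the fit as reported and for the other processings except the replicate block. The fit with that block, of the E17 and E19 libraries only, is not drawn and gave 372 higher and 202 lower genes. The fit as reported gives 583 and 434 genes, library totals give 324 and 1248, and the fits that leave out 1 library give 507 to 562 higher and 347 to 424 lower genes.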

How the data were processed

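Raw counts of 26 libraries, whole numbers, were deposited by the authors for each gene. Per the submitters' processing notes the tools were STAR 2.7.10a, HTSeq 2.0.2 and DESeq2. The genome build, annotation, strand setting and use of molecular identifiers, not given in the sources used here, leave overlapping or near-identical genes uncertain. The authors also deposited a normalised signal, equal to the count over 1 size factor per library (largest relative difference 0.000125 for counts of at least 100) and used for that check alone. Their deposited log2 fold changes, adjusted p-values, calls and cluster numbers are quoted as theirs. For a call they required an adjusted p of at most 0.05, a log2 fold change of at least 1 in size and a maximum count of at least 30. The table lists 8758 genes, the lowest maximum count of a gene being 6.

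Here, edgeR 4.0.16 (R 4.3.3) with TMM factors, filterByExpr by day (minimum count 10, minimum total 15, 5901 genes with 99.23% of the counts) and a quasi-likelihood fit of all 26 libraries with day as the only term was used. Benjamini-Hochberg adjustment ran over the 5901 genes. The SE of a log2 fold change is its size over the square root of the F statistic. Levels are TMM-scaled CPM, log2 CPM with a prior count of 2. Abundance ranks are over all 26 libraries. Genes at equal depth are hypergeometric expectations. Exact tests enumerate all divisions of the 11 libraries. A 0 in 1 library allows 1.47 to 5.17 CPM, taking 3 counts as the limit, for counting error only. These limits use library totals without TMM factors, and on the TMM scale those of E19 are higher. Of 25 replicate pairs none was identical, with a chi-square per degree of freedom between 3.15 and 11.5. The scripts were tested on simulated data. The simulated counts for the fit had the same spread on every day and balanced changes, so unequal spread and the choice of scale were not checked.

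Genes are named by the rule given in the report, whose longer form needed gene names. Lists and markers that need names were not run. The comparison, the tests and the alternatives were chosen with earlier results of these data known.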

Additional observations from a re-analysis of the deposited data

Results flagged for a closer look

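In 40 groups of 4 to 6 libraries, 4 had a library far from the others of its day, and chance flags about 1 in 20 groups. ENSGALG00000023622.3 stood at 212 normalised CPM in E20 replicate 2, apart from the other 4 libraries of that day. ENSGALG00000028273.2 stood at 38.7 normalised CPM in E19 replicate 3, above the other E19 libraries. In the same library, E19 replicate 3, the gene with the most counts took 10.3% of the counts, below the other E19 libraries. In E17 replicate 2, the deepest of the 11, 70 genes were needed to hold 50% of the counts, more than in the other E17 libraries.

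The step from E17 to E19 differed from the step from E15 to E17 for 153 genes in edgeR (adjusted p under 0.05). Among the genes named, ENSGALG00000028273.2 had such a difference, of -1.73 on the log2 scale (adjusted p = 0.0187 in edgeR). Its level was lower at E19 in 5 of 5 libraries than in any E17 library, which the rule for naming genes requires.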

How the results depend on the processing

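The counts of genes higher and lower at E19 stayed within 1.5 times of 583 and 434 in 16 of 18 alternatives each. They moved to 324 and 1248 with library totals, and to 372 and 202 with the replicate block in a fit of the E17 and E19 libraries. That fit tested 4607 genes, and without the block it gave 486 and 316. The same-numbered libraries did not deviate together (correlations from -0.07 to 0.03 over 5 pairs), so the numbers are no pairing shown by the data. Leaving out 1 library gave 507 to 562 higher and 347 to 424 lower genes, and 370 and 237 genes passed in each of these fits. In every alternative except the replicate block, 257 genes were called higher (44.1% of 583) and 214 lower (49.3% of 434). Genes left untested by an alternative are counted there as not called. DESeq2 gave 617 and 401. The count of genes whose steps differ was 230 in DESeq2, against 153, and 79 to 200 with 1 library left out. The share of ranks 2 to 20 rose by 3.42 to 4.09 points and the genes at equal depth changed by -298 to -250 with 1 library left out, always at an exact permutation p under 0.05. The 4 genes named kept their direction and passed in every alternative that tested them, with ENSGALG00000027716.2 and ENSGALG00000010244.6 left untested by the filter in the fits of E17 and E19 alone. At the depth of E19, genes of a few CPM rest on 1 or 2 counts a library.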

Other observations

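Genes without a count at one of the days were looked at over all 8758 genes listed. In the 5 E19 libraries together 138 genes had no count, and in the 6 E17 libraries 36, from 4528462 and 8767947 counts in all. A total of 25 genes had at least 10 counts at E17 and none at E19, and 1 gene had at least 10 counts at E19 and none at E17. Scaled to the E19 total, 4 of the 25 would still have had 10 counts. Taking 3 counts over the group as the limit, no count at E19 allows up to 0.662 CPM on library totals, without TMM factors. Of the 25 genes, 1 passed the filter on low counts and it did not pass the test.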
